A study of Mus musculus with 6 samples.

Results

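The BCL-2 family survival and death genes were followed in ILC2s (type 2 innate lymphoid cells), which reside in the lung and other surfaces and make IL-5 and IL-13 when IL-33 reaches them. The members were a listed set of 10 genes, namely Bcl2, Bcl2l1, Mcl1, Bcl2a1a, Bcl2a1b, Bcl2l11, Pmaip1, Bbc3, Bax and Bak1. All 10 were among the 17438 genes of the deposited count table, and all 10 passed the filter on low counts. The study sequenced RNA of cultured lung ILC2s from Cd48 KO mice (3 libraries, genotype label B6.129S4-Cd48tm1Rsr/EpaulJ) and from WT mice (3 libraries, genotype label WT). The strain label of all 6 samples was CB57BL/6, and all 6 were treated with IL-33, so no group without IL-33 was compared. The labels give neither the age of the mice nor whether animals were pooled. CD48 is a GPI-anchored receptor of the SLAM family, and the mutant allele is germline, so cells other than ILC2s lack it too. The labels do not say that samples came from separate animals, so each p-value reflects only how far these samples scatter, and that scatter may be technical. The series' design text speaks of duplicates, while 3 samples per genotype were analysed here.

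The BCL-2 family sets whether a cell opens its outer mitochondrial membrane and dies. The effectors BAX and BAK form the pores, and the guardians BCL-2, BCL-XL, MCL-1 and A1 hold the effectors and their activators in check. BH3-only proteins such as BIM, NOXA and PUMA tie up the guardians, and some of them also activate the effectors directly. In lymphocytes, cytokines that signal through STAT5 are known to sustain the guardians and to restrain BIM.

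Library totals ran from 14928623 to 27450400 counts. The Cd48 transcript stood at 4.52, 5.59 and 4.4 CPM (counts per 1000000, scaled between libraries) in KO1, KO2 and KO3, against 58.2, 46.6 and 41.6 CPM in WT1, WT2 and WT3, so it was low in every KO library. The fit gave a log2 fold change of -3.33 (SE 0.20, adjusted p 0.00285, edgeR) with all libraries and -3.18 (adjusted p 3.52e-07, edgeR) without WT1. WT1 was unlike the rest: its log2 CPM correlated with those of each other library at a Pearson's r of 0.945 to 0.955, whereas the remaining libraries reached 0.989 to 0.995 among themselves. These correlations run across genes, which are not independent replicates. Every genotype comparison of a member is therefore given with all 6 libraries and without WT1. All 12 listed ILC2 markers were in the table, with a summed level of 13194 to 13951 CPM in KO and 11624 to 15096 CPM in WT libraries. Of markers of other cells, 5 of 8 T cell genes summed to 13.8 to 15.8 CPM in KO and 26.3 to 45.6 CPM in WT libraries (Cd4, Cd8a and Cd5 were not in the table used here), and 6 of 6 epithelial genes summed to 9.9 to 23.6 CPM in KO and 30.2 to 79.5 CPM in WT libraries. Of 7 neutrophil genes 1 was in the table, at 0 to 0.307 CPM in KO and 0 to 0.287 CPM in WT libraries. Of 7 macrophage and dendritic cell genes 6 were in it, with sums of 6.49 to 14.6 CPM in KO and 9.01 to 28.5 CPM in WT libraries. The largest sum was that of 2 of 6 mast cell and basophil genes, mostly Kit, at 272 to 275 CPM in KO and 114 to 281 CPM in WT. Endothelial genes (2 of 5) summed to 40.1 to 41.9 and 29.1 to 40.2 CPM in KO and WT, and B cell genes (2 of 5) to 12.9 to 13.7 and 11.7 to 27.8 CPM. NK cell and ILC1 genes (2 of 6) reached at most 1.17 CPM, and 0 of 5 fibroblast genes were in the table.

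The A1 genes Bcl2a1a and Bcl2a1b, together with Bcl2a1d, are near-identical copies on mouse chromosome 9. How far their reads can be told apart decides what their values mean, so the start of their coding sequences is shown first. The lines give coding bases 1 to 90, counted from the A of the start codon, 5′ to 3′, from the GENCODE M21 transcripts (GRCm38). Capitals mark the 6 of these positions at which the 3 copies are not all the same.
Bcl2a1a (chr9:88957051-88957140, plus strand): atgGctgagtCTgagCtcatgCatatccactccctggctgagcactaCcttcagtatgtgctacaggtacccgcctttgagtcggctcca
Bcl2a1b (chr9:89199360-89199449, plus strand): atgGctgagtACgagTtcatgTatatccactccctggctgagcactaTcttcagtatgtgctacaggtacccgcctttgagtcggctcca
Bcl2a1d (chr9:88731630-88731719, minus strand): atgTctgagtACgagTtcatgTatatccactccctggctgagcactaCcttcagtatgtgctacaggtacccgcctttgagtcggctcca
Over the whole coding sequence of 516 bases, Bcl2a1a and Bcl2a1b differed at 11 positions (97.9% identity), Bcl2a1a and Bcl2a1d at 7 (98.6%), and Bcl2a1b and Bcl2a1d at 6 (98.8%). Of all windows of 75 bases in the transcript, 44.8% for Bcl2a1a, 31.6% for Bcl2a1b and 32.4% for Bcl2a1d occurred in no transcript of another gene. With windows of 50 bases these shares were 31%, 20.8% and 20.5%. Since most windows are shared, the division of reads between the copies is uncertain, and their sum is given beside them. The deposited values of all 3 copies were fractional in 6 of 6 libraries, but fractional values were not particular to the copies. Those of Bax were also fractional in 6 of 6 libraries, while values were whole, within 0.001, in 1 library for Bcl2, 2 for Bcl2l1, 3 for Pmaip1, 5 for Mcl1 and all 6 for Bcl2l11, Bbc3 and Bak1.

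Per kilobase of transcript, which is the scale on which different genes can be compared, Bax was the most abundant member in each of the 6 libraries. Bax, whose product is a pore-forming effector, averaged 252 ± 7.21 CPM per kilobase in KO and 323 ± 115 CPM per kilobase in WT libraries (SD, n = 3 each). Bcl2l1, which encodes the guardian BCL-XL, came next in every library, at 70.2 ± 2.8 CPM per kilobase in KO and 75.8 ± 12.3 CPM per kilobase in WT libraries (SD, n = 3 each). Mcl1 held the third place in every library, at 19 ± 4.63 CPM per kilobase in KO and 32.2 ± 7.65 CPM per kilobase in WT libraries (SD, n = 3 each). These first 3 places were the same in all libraries, and by mean level also with the median transcript or the exon union as the length.

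**Figure D1:**
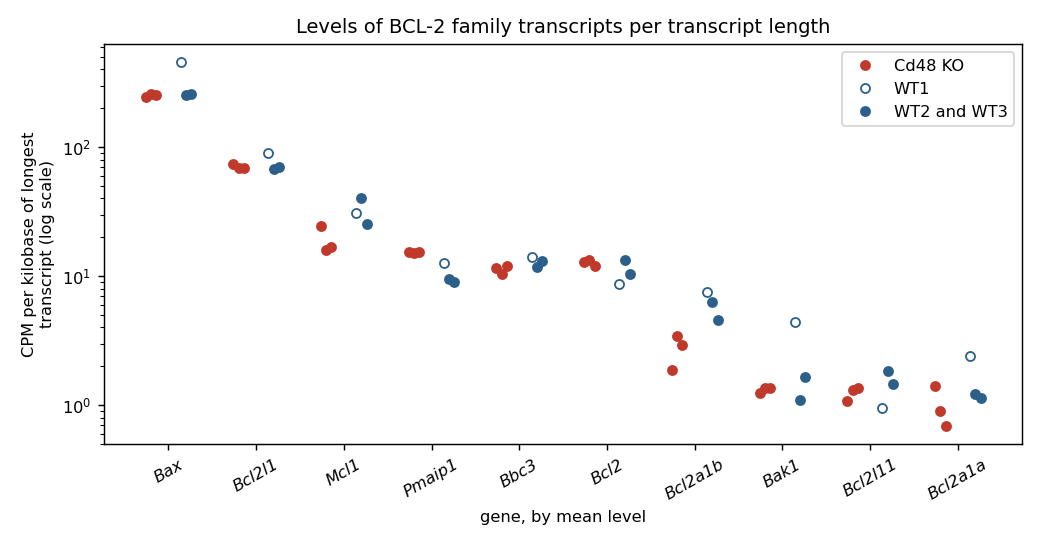
CPM per kilobase of the longest annotated transcript (vertical, log scale) for the 10 members (horizontal, by mean level), with 1 point per library, Cd48 KO in red and WT in blue, and WT1 as an open circle. Bax, at 244 to 455 CPM per kilobase, lies above Bcl2l1 at 67.7 to 90 and above every other member, and the lowest 3 members overlap each other.

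Pmaip1, Bbc3 and Bcl2 followed at 8.96 to 15.3, 10.3 to 14.1 and 8.66 to 13.4 CPM per kilobase over the 6 libraries, and their ranges overlap, so no order among them is given. Bcl2a1b, at 1.87 to 7.52 CPM per kilobase, overlapped with Bak1 (1.09 to 4.39), and Bak1 overlapped with Bcl2l11 (0.957 to 1.83) and Bcl2a1a (0.689 to 2.39). Among the BH3-only members, transcripts of NOXA and PUMA were thus more abundant per length than those of BIM in each library. Among the effectors, Bax exceeded Bak1 in each library. The A1 copy Bcl2a1d is not among the 10 members, so it is in neither this order nor the shares below. It held most of the A1 sum, at 18.7 to 19.6 CPM in KO and 21.6 to 38.1 CPM in WT libraries. The low places of Bcl2a1a and Bcl2a1b are therefore not the place of A1 as a whole. The effectors made up 63.4%, 66.9% and 66.4% of the summed level per kilobase of the 10 members in KO1, KO2 and KO3, and 73.4%, 62.6% and 66% in WT1, WT2 and WT3. The guardians made up 29.4%, 26.3% and 26.2% in KO1, KO2 and KO3, and 22.2%, 31.7% and 28.1% in WT1, WT2 and WT3. These shares overlapped between the genotypes. BH3-only transcripts took 7.21%, 6.84% and 7.4% in KO1, KO2 and KO3, and 4.42%, 5.67% and 5.92% in WT1, WT2 and WT3. This small share was higher in every KO library than in any WT library, and no test was made of it. Of the BH3-only members only Pmaip1 had the higher mean in KO (15.2 against 10.4 CPM per kilobase in WT). Bbc3 (11.2 against 12.9) and Bcl2l11 (1.24 against 1.41) had lower means in KO. The share of WT1 also depends on its high Bax level, 455 CPM per kilobase, in the sum.

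Cd48 KO and WT libraries were compared to see whether loss of CD48 goes with a different balance of these transcripts. With all 6 libraries 0 of the 10 members passed edgeR's quasi-likelihood test, adjusted by Benjamini and Hochberg's method over all 13317 tested genes, of which 0.03% passed (0.015% higher in KO and 0.015% lower). At an unadjusted p under 0.05 there were 3 members, Pmaip1 higher and Mcl1 and Bcl2a1b lower, against 6.89% of all tested genes. DESeq2 called 0 members with all libraries, where it called 0.811% of genes (0.421% higher in KO and 0.39% lower), and its unadjusted p was under 0.05 for the same 3 members and for 8.93% of genes. These 3 were also the members whose groups did not overlap, which held for 19.3% of tested genes (10.2% with KO higher and 9.11% with KO lower). Without WT1, 1 member was called by edgeR, Pmaip1, and it was higher in KO, where 1.82% of 13643 genes were called (1.17% higher in KO and 0.652% lower). At an unadjusted p under 0.05 there were then 2 members, Pmaip1 and Bcl2a1b, against 13.7% of genes. Groups then did not overlap for 4 members, Pmaip1 higher and Mcl1, Bcl2a1b and Bcl2l11 lower in KO, against 30% of genes (15.8% with KO higher and 14.3% with KO lower). DESeq2 without WT1 called Pmaip1 alone among the members, where it called 3.02% of genes (1.9% higher in KO and 1.12% lower), and 3 members (Pmaip1, Mcl1 and Bcl2a1b) and 12.4% of genes had an unadjusted p under 0.05. The median log2 fold change of the members was -0.28 with all libraries and -0.11 without WT1, against 0.00 over all tested genes in both. An average over the members says little here, since they act against each other. In RNA from a population, fewer cells that carry a transcript and less of it per cell cannot be told apart.

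**Figure D2:**
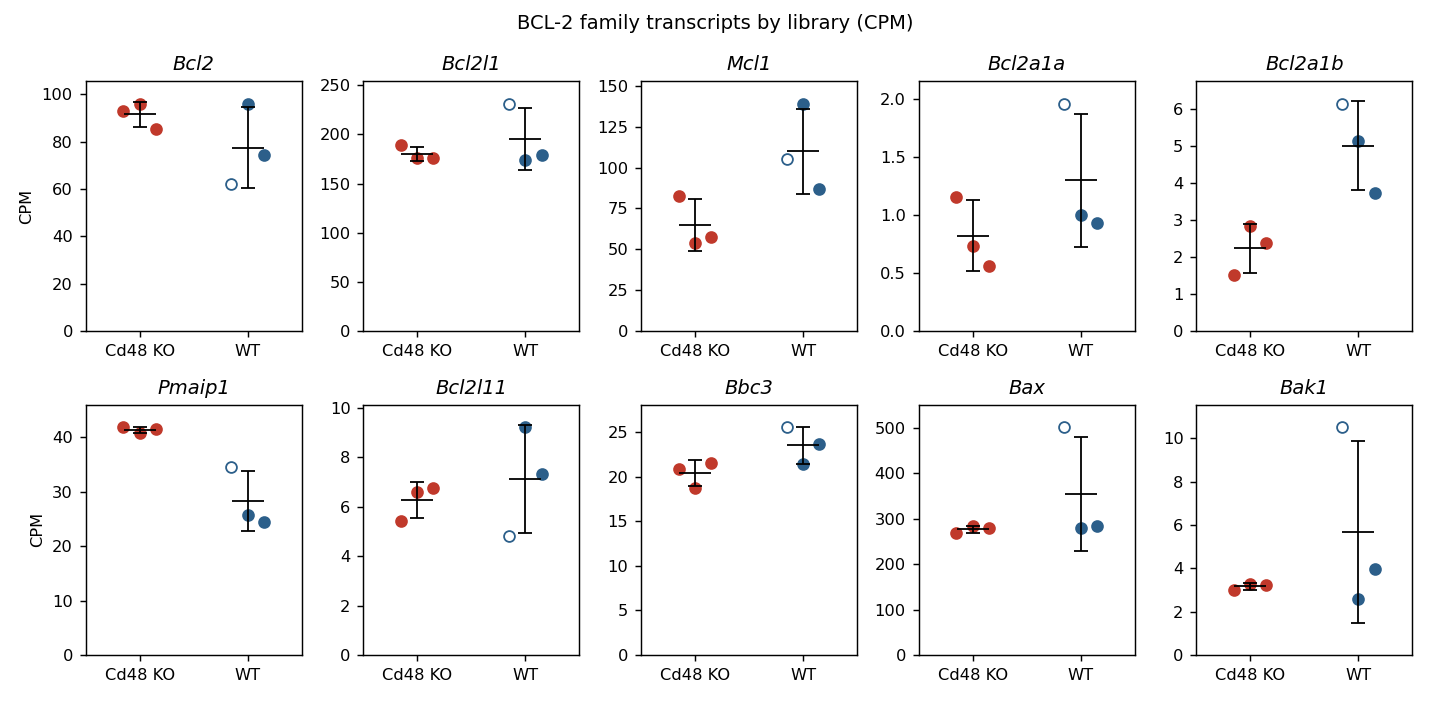
CPM of each member (vertical, from 0) by library, Cd48 KO in red and WT in blue, with WT1 as an open circle. Horizontal marks are group means and bars are SD (n = 3 each). The groups are apart for Pmaip1, at 40.8 to 41.8 CPM in KO and 24.4 to 34.6 CPM in WT libraries, and for Mcl1 and Bcl2a1b, which are lower in KO, and overlap for the other 7 members.

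Pmaip1 (chromosome 18) encodes NOXA, a BH3-only protein that binds MCL-1 and A1 and is a classical target of p53. It stood at 41.8, 40.8 and 41.6 CPM in KO1, KO2 and KO3, against 34.6, 25.8 and 24.4 CPM in WT1, WT2 and WT3. The KO libraries lay close together and above every WT library, and WT1 was the WT library nearest to them. With all libraries the log2 fold change was 0.55 (SE 0.17), which did not pass (adjusted p 0.69, edgeR). Without WT1, Pmaip1 stood at 41.4 ± 0.527 CPM in KO (SD, n = 3), against 25.1 ± 0.937 CPM in WT (SD, n = 2). The fit then gave a log2 fold change of 0.73 (SE 0.11) at an adjusted p of 0.00493 (edgeR). DESeq2 and limma-voom without WT1 gave an adjusted p of 4.91e-07 and 0.00886. The call held when any further library was left out, with adjusted p from 0.0127 to 0.0413 (edgeR). With all 6 libraries, limma-voom with sample quality weights, which weighted WT1 at 0.0919 and each other library at 1.08 to 2.36, also called Pmaip1 (log2 fold change 0.71, adjusted p 0.0163), where 0.713% of genes were called (0.383% higher in KO and 0.33% lower) and 3 members (Pmaip1, Mcl1 and Bcl2a1b) and 14.5% of genes had an unadjusted p under 0.05. These fits reuse the same libraries and are not independent of each other.

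Mcl1 (chr3:95658788-95663176, plus strand) encodes MCL-1, a short-lived guardian that lymphocytes depend on. Its level was 82.9, 53.9 and 57.5 CPM in KO1, KO2 and KO3, against 105, 139 and 87.1 CPM in WT1, WT2 and WT3. Every KO library lay below every WT library, but KO1 and WT3 were close to each other, and both genotypes were spread widely. The log2 fold change was -0.76 (SE 0.24) with all libraries and -0.79 (SE 0.29) without WT1, with adjusted p of 0.69 and 0.375 (edgeR), so Mcl1 did not pass in either fit. Of the alternatives, only a replicate block without WT1 called Mcl1 (-0.97, adjusted p 0.0332, edgeR), and whether replicate numbers pair samples is not known. Its value depended on WT2, the highest WT library. Without WT1 and WT2 the log2 fold change was -0.43, and without WT1 and WT3 it was -1.10.

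NOXA is known from human cells to promote degradation of MCL-1, so the ratio of both transcripts was computed per library, a choice made after their values had been seen. Per kilobase, the level of Pmaip1 over that of Mcl1 was 0.632, 0.949 and 0.907 in KO1, KO2 and KO3, against 0.414, 0.233 and 0.352 in WT1, WT2 and WT3. The ratio was higher in every KO library, which the separate values already fix, since neither gene overlapped between the genotypes, and no test was made of it. Bcl2l11 over Bcl2 was 0.0835, 0.0978 and 0.113 in KO1, KO2 and KO3, and 0.11, 0.137 and 0.14 in WT1, WT2 and WT3, where KO3 overlapped with WT1.

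Bcl2 (chr1:106538178-106714274, minus strand), the founding guardian, lies 65 Mb from Cd48 on the same chromosome. It stood at 92.9, 96 and 85.5 CPM in KO1, KO2 and KO3, against 62.3, 95.8 and 74.5 CPM in WT1, WT2 and WT3, and WT2 lay within the KO range. Its log2 fold change was 0.24 (SE 0.17) with all libraries and 0.11 (SE 0.10) without WT1, with adjusted p of 0.696 and 0.716 (edgeR). An antisense transcript, D630008O14Rik, overlaps Bcl2, and whether reads were counted by strand is not given in the sources used here. Bcl2l1 (chr2:152780668-152831728, minus strand) was at 189, 176 and 176 CPM in KO1, KO2 and KO3, against 231, 174 and 179 CPM in WT1, WT2 and WT3. Its 5 libraries other than WT1 lay between 174 and 189 CPM, and its log2 fold change was 0.03 (SE 0.06) without WT1 (adjusted p 0.883, edgeR). It was -0.11 (SE 0.14) with all libraries.

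Bcl2a1b (chr9:89199209-89207827, plus strand) was a transcript of low level with 25 to 46 counts per KO library and 77 to 104 counts per WT library. It stood at 1.53, 2.83 and 2.37 CPM in KO1, KO2 and KO3, against 6.14, 5.14 and 3.73 CPM in WT1, WT2 and WT3. The groups did not overlap, and the log2 fold change was -1.15 (SE 0.33) with all libraries and -0.97 (SE 0.32) without WT1, with adjusted p of 0.69 and 0.189 (edgeR), which did not pass. Bcl2a1a (chr9:88956900-88962419, plus strand) had 10 to 28 counts per library, from 0.564 to 1.16 CPM in KO and from 0.933 to 1.96 CPM in WT libraries, and its groups overlapped. Its log2 fold change was -0.64 (SE 0.49, adjusted p 0.7, edgeR) with all libraries and -0.23 (SE 0.52, adjusted p 0.903, edgeR) without WT1. Gm29094 overlaps Bcl2a1b on the same strand. The sum of Bcl2a1a, Bcl2a1b and Bcl2a1d was 22.3, 22.6 and 21.7 CPM in KO1, KO2 and KO3, against 46.2, 31.6 and 26.3 CPM in WT1, WT2 and WT3. The sum was lower in every KO library, with a log2 fold change of -0.64 (SE 0.22, adjusted p 0.69, edgeR) with all libraries and -0.37 (SE 0.13, adjusted p 0.191, edgeR) without WT1. Among the T cell markers Cd3g had the highest mean level, and among the epithelial markers Epcam. The summed T cell and epithelial markers were also lower in every KO library than in any WT library, as was Mcl1. Single genes did so in 9.11% of all tested genes. The ranges of the summed B cell, NK cell, neutrophil, mast cell, macrophage and endothelial markers overlapped between the genotypes. The part of other cells in the A1 and Mcl1 values was not tested.

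Bcl2l11 (chr2:128126038-128162547, plus strand), the gene of BIM, which binds all guardians, was low, at 5.43, 6.58 and 6.77 CPM in KO1, KO2 and KO3, against 4.82, 9.21 and 7.32 CPM in WT1, WT2 and WT3. WT1 lay below all KO libraries and WT2 and WT3 above them. The log2 fold change was -0.19 (SE 0.27) with all libraries and -0.39 (SE 0.21) without WT1, with adjusted p of 0.801 and 0.47 (edgeR). Bbc3 (chr7:16308393-16318205, plus strand), the gene of PUMA, is a further target of p53. It stood at 20.9, 18.7 and 21.5 CPM in KO1, KO2 and KO3, against 25.5, 21.4 and 23.6 CPM in WT1, WT2 and WT3. Its groups overlapped slightly, and the log2 fold change was -0.21 (SE 0.14) with all libraries and -0.14 (SE 0.13) without WT1, with adjusted p of 0.693 and 0.714 (edgeR).

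**Figure D3:**
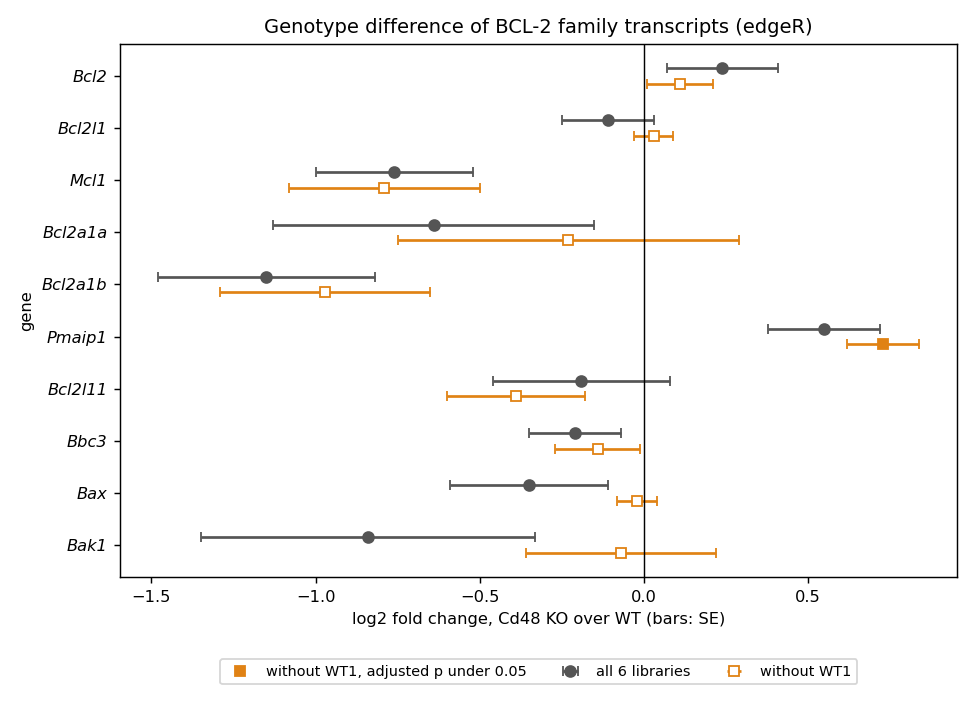
log2 fold change, Cd48 KO over WT (horizontal, bars are SE), of the 10 members by role (vertical) with all 6 libraries in grey and without WT1 in orange. Pmaip1 without WT1 is the only filled square, which marks an adjusted p under 0.05. Mcl1 keeps about the same value in both fits (-0.76 and -0.79), while Bax and Bak1 lie near 0 without WT1.

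The transcripts of both effectors lay apart in WT1 alone. Bax (chr7:45461697-45466898, minus strand) was at 269, 284 and 279 CPM in KO1, KO2 and KO3, against 501, 279 and 285 CPM in WT1, WT2 and WT3. The log2 fold change was -0.35 (SE 0.24) with all libraries and -0.02 (SE 0.06) without WT1, where the adjusted p was 0.927 (edgeR). Bak1 (chr17:27019810-27029009, minus strand) was at 2.99, 3.26 and 3.22 CPM in KO1, KO2 and KO3, against 10.5, 2.6 and 3.95 CPM in WT1, WT2 and WT3. Its log2 fold change was -0.84 (SE 0.51) with all libraries and -0.07 (SE 0.29) without WT1 (adjusted p 0.953, edgeR). For both genes the KO libraries lay beside WT2 and WT3, and WT1 was far above all of them. Gm45808 overlaps Bax on the same strand and Ggnbp1 overlaps Bak1 on the opposite strand, so reads of these pairs may not be separable.

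The distance of WT1 moved with transcript length. For annotated genes averaging 1 CPM or more, log2(CPM + 2) in WT1 minus the mean of WT2 and WT3 had a median of 0.27 where transcripts measured 1000 to 2000 bases and of -0.73 from 8000 bases upward. Among the members, the 7 with transcripts under 3000 bases were all higher in WT1, by 0.17 (Bbc3) to 1.25 (Bak1). The 3 longer ones were lower, at -0.07 for Mcl1 (3418 bases), -0.58 for Bcl2l11 (5036 bases) and -0.43 for Bcl2 (7191 bases). When a trend on length was removed from each library, the log2 fold change with all 6 libraries was 0.02 for Bcl2, -0.77 for Mcl1 and 0.61 for Pmaip1, and 0 members passed (edgeR). On the log2(CPM + 2) scale the KO mean minus the mean of WT2 and WT3 was 0.68 for Pmaip1 and -0.77 for Mcl1.

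**Figure D4:**
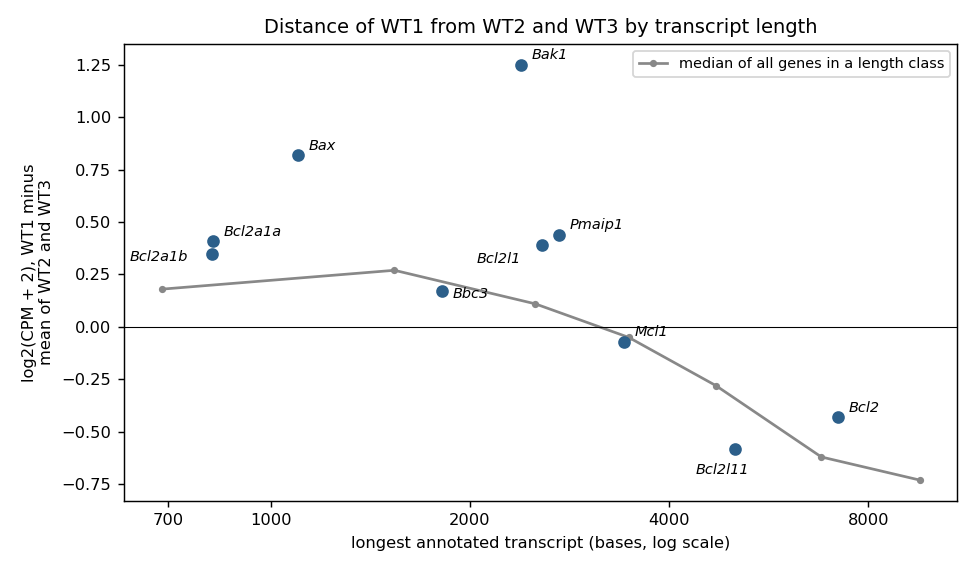
log2(CPM + 2) of WT1 minus the mean of WT2 and WT3 (vertical) against the longest annotated transcript in bases (horizontal, log scale). Points are the 10 members and the grey line is the median of all genes in each length class. The line lies at 0.27 for 1000 to 2000 bases and at -0.73 from 8000 bases, and Bax (0.82) and Bak1 (1.25) lie well above it.

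Other genes of the cell death pathway were read in 5 lists. Of these, DESeq2 called 0 genes with all libraries and 1 without WT1, where it called 0.811% and 3.02% of all tested genes. Over all tested genes, edgeR called 0.03% with all libraries and 1.82% without WT1. Its unadjusted p was under 0.05 for 6.89% and 13.7% of them. Of the further BCL-2 family genes 11 of 14 were in the table and 9 were tested. None passed with all 6 libraries (edgeR, 1 at an unadjusted p under 0.05) or without WT1 (2 at an unadjusted p under 0.05), and the median log2 fold change was -0.37, or -0.07 without WT1. The abundant ones were Bcl2l13, a mitochondrial relative of the family that takes part in mitophagy (99.1 ± 8.04 CPM in KO and 77.1 ± 21.4 CPM in WT), the BH3-only gene Bad (30 ± 3.14 and 35.8 ± 8.98 CPM in KO and WT) and Bcl2a1d (19.1 ± 0.436 and 28.4 ± 8.61 CPM in KO and WT; SD, n = 3 each). The mean of WT2 and WT3 was 89.2 CPM for Bcl2l13, 30.6 CPM for Bad and 23.5 CPM for Bcl2a1d. Of 13 caspase and apoptosome genes 0 passed in either edgeR fit, 0 had an unadjusted p under 0.05, and the medians were -0.04 with all libraries and 0.02 without WT1. Cycs, the gene of cytochrome c, stood at 628, 706 and 668 CPM in KO1, KO2 and KO3, against 1507, 680 and 621 CPM in WT1, WT2 and WT3, so WT1 alone was high. Apaf1, whose product binds cytochrome c to build the apoptosome, was at 249, 211 and 195 CPM in KO1, KO2 and KO3, against 48, 194 and 209 CPM in WT1, WT2 and WT3, so WT1 alone was low. Diablo, an antagonist of the caspase inhibitors, had a log2 fold change of -0.09 (SE 0.10).

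Of 8 tested genes listed as caspase inhibitors, Naip genes among them, 0 passed in either edgeR fit (0 at an unadjusted p under 0.05 with all libraries and 1 without WT1). Over all tested genes, 6.89% and 13.7% had an unadjusted p under 0.05 in these fits (edgeR). All 8 had a positive log2 fold change with all libraries (median 0.33), as did 6590 of 13317 tested genes. Without WT1, 7 of the 8 were positive (median 0.12), against 6842 of 13643 genes. Birc5, the gene of survivin, which also acts in cell division, had a log2 fold change of 0.04 (SE 0.22) with all libraries and 0.32 (SE 0.09) without WT1 (adjusted p 0.108, edgeR). For Birc3 the log2 fold change was 0.15 in the fit with 6 libraries and 0.05 without WT1, and for Birc6 0.46 and 0.11. Of 9 tested death receptor genes 0 passed in either edgeR fit (0 at an unadjusted p under 0.05 with all libraries and 1 without WT1), with medians of -0.03 with all libraries and 0.08 without WT1. The initiator Casp8 was at 469 ± 8.95 CPM in KO and 480 ± 59.5 CPM in WT, and its antagonist Cflar at 77.1 ± 7.13 CPM in KO and 60 ± 19.1 CPM in WT (SD, n = 3 each). The mean of WT2 and WT3 was 446 CPM for Casp8 and 71 CPM for Cflar, whose log2 fold change was 0.36 with all libraries and 0.12 without WT1. Ripk1 had a log2 fold change of 0.27 with all libraries and 0.02 without WT1.

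Of 17 partners and regulators of the family, 0 passed with all libraries (edgeR, 2 at an unadjusted p under 0.05) and 1 passed without WT1 (4 at an unadjusted p under 0.05, 2 higher and 2 lower), where 1.82% of all genes passed and 13.7% had an unadjusted p under 0.05. The medians were 0.02 with all libraries and -0.02 without WT1. The gene that passed was Mdm2, which encodes the ubiquitin ligase that degrades p53 and is itself a p53 target. Bbc3, named above as a p53 target too, had a log2 fold change of -0.21 with all libraries and -0.14 without WT1. Activity of p53 was not tested. Mdm2 stood at 240, 248 and 243 CPM in KO1, KO2 and KO3, against 156, 200 and 200 CPM in WT1, WT2 and WT3, and the groups did not overlap, which held for 19.3% of genes with all libraries and 30% without WT1. Its log2 fold change was 0.39 (SE 0.13) with all libraries (adjusted p 0.69, edgeR) and 0.28 (SE 0.06) without WT1 (adjusted p 0.0319, edgeR). The call ended when WT2, WT3, KO2 or KO3 was also left out, with adjusted p of 0.159, 0.135, 0.171 and 0.128 (edgeR), while the log2 fold change stayed at 0.27 to 0.28. Trp53, which encodes p53 and was named after its values were seen, was at 212, 190 and 203 CPM in KO1, KO2 and KO3, against 169, 224 and 218 CPM in WT1, WT2 and WT3, with adjusted p of 0.967 and 0.399 in the fits with all libraries and without WT1 (edgeR). The channel gene Vdac2, whose product binds BAK, had a log2 fold change of -0.22 with all libraries and 0.02 without WT1, and Mtch2, the gene of a mitochondrial receptor of BID, -0.02 in both.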

How the data were processed

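RNA of 6 samples of cultured lung ILC2s, 3 Cd48 KO and 3 WT, was analysed, grouped by sample titles. Per the labels' protocols, libraries started from 10 pg of RNA and the SMARTer Ultra Low Input kit, version 3. Named in the submitters' processing notes are mm10, DESeq2, Partek 10.0 and STAR 2.7.8, without their roles. Which counter, annotation and strand setting were used is not given in the sources used here. Estimated counts, not normalized, were deposited for each gene (60.2% of non-zero values are whole within 0.001). They were rounded and tested on the full table in R 4.3.3 with edgeR 4.0.16 (robust quasi-likelihood fit, TMM, filterByExpr with a minimum count of 10 and total of 15). Calls are Benjamini-Hochberg adjusted p-values under 0.05. The SE was derived from the fold change and its F statistic. DESeq2 1.42.0 and limma 3.58.1 served as alternatives. CPM were scaled by TMM over 6 libraries, and lengths are those of the longest GENCODE M21 transcript (97.6% of symbols matched). Replicates differed by more than sampling noise (chi-square per degree of freedom 5.22 to 9.29 for pairs of one genotype without WT1, 98.4 and 135 for WT1 with WT2 and WT3). Members, lists and the separate reading without WT1 were chosen with earlier results of these data known. Named are the members, Cd48, and of each list the called genes and the 3 most abundant, with exceptions stated.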

Additional observations from a re-analysis of the deposited data

How the results depend on the processing

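With all 6 libraries 0 members were called under each alternative except limma-voom with sample quality weights and the fit without WT1 (1 each), so the range over left-out libraries was 0 to 1. For the other apoptosis genes that range was also 0 to 1. Over all genes, 4 were called, against 108 with DESeq2, 95 with limma-voom with sample quality weights, and 0 to 248 when a library was left out. Without WT1, 248 were called, against 412 with DESeq2, 420 at an adjusted p under 0.1, and 65 to 517 when a further library was left out. The count of other apoptosis genes then ran from 0 to 4. A lone remaining WT library is taken to vary as the KO libraries do. Cd48 kept log2 fold changes of -3.45 to -3.18 when a library was left out, and its call ended without KO1 or KO3 (adjusted p 0.0754 and 0.0775). The causes were not tested.

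The labels do not say that equal replicate numbers pair samples. Same-numbered deviations from the group means correlated at -0.06, -0.04 and 0.02. WT1 lies far from WT2 and WT3 and so shapes all WT deviations, so these values cannot decide whether samples were paired. With the replicate block 0 genes were called with all libraries, and Cd48 had a log2 fold change of -3.32 (adjusted p 0.129). Without WT1 the replicate block called 570 genes, 2 members (Pmaip1, and Mcl1 at -0.97 with an adjusted p of 0.0332) and 4 other apoptosis genes.

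Directions turned for values that never passed. Bcl2l1 was at 0.01 with sample quality weights, and ran from -0.18 to 0.03 over left-out libraries. Bcl2l11 ran from -0.39 to 0.04. Without WT1, Bax turned to 0.03 with the length trend removed, 0.01 with the replicate block and 0.01 without KO1, and leaving out a further library gave -0.07 to 0.29 for Bcl2 and -0.33 to 0.27 for Bak1. Of the 10 ranks per length, 5 stayed with the median transcript, 8 with the exon union and 6 without WT1. Low counts limit Bcl2a1a, Bcl2a1b, Bcl2l11 and Bak1, which a minimum mean of 10 CPM left untested.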

Other observations

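Values outside the named lists' rule, chosen after they had been seen, are these. Foxo1, the gene of a transcription factor known to drive Bcl2l11 in other cells, stood at 22.2, 11.9 and 12.5 CPM in KO1, KO2 and KO3, against 33.1, 30.4 and 19.4 CPM in WT1, WT2 and WT3. Its log2 fold change was -0.83 (SE 0.32) with all libraries and -0.67 (SE 0.33) without WT1, with adjusted p of 0.69 and 0.465 (edgeR), so it did not pass. Usp9x, which encodes a deubiquitinase that stabilises MCL-1, was at 240, 228 and 219 CPM in KO1, KO2 and KO3, against 37.7, 179 and 210 CPM in WT1, WT2 and WT3. Its log2 fold change was 0.68 with all libraries and 0.23 without WT1 (adjusted p 0.701 and 0.182, edgeR). Its longest transcript has 11887 bases. Bok, a relative of the effectors, was at 4.7, 4.55 and 4.74 CPM in KO1, KO2 and KO3, against 5.31, 3.6 and 2.37 CPM in WT1, WT2 and WT3, with adjusted p of 0.726 and 0.302 in the fits with all libraries and without WT1 (edgeR).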
